A study of Mus musculus with 6 samples.

Results

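Cell cycle and DNA replication genes were followed in adipose tissue macrophages of mice fed high-fat diet (HFD), without or with magnesium isoglycyrrhizinate (MGIG), a magnesium salt of isoglycyrrhizic acid. The set comprised 39 genes of the 57180 in the count table, chosen by symbol and all matched to an Ensembl ID. It was divided into 15 S phase genes (replication origins, the replicative helicase, the sliding clamp, nucleotide synthesis and E cyclins) and 24 mitosis genes. RNA was sequenced in bulk. The design text of the series names cells sorted for F4/80 and CD11b, and the extraction protocol names tissue. The 3 libraries labelled HFD and the 3 libraries with MGIG (HFD+MGIG) came from white adipose tissue of wild-type mice, and both groups were on the high-fat diet. Strain, sex, age and the dose and duration of MGIG were not given in the sources used here. Whether libraries were made from separate animals is not stated in the labels, and p-values therefore cover just the spread among these libraries, part of which may be technical.

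A dividing cell first loads the MCM helicase onto replication origins, with help from CDC6, and CDC45 joins it when the helicase is switched on. PCNA clamps polymerases to DNA, and ribonucleotide reductase and thymidylate synthase supply deoxynucleotides. Cyclins A and B with CDK1 drive the cell into mitosis, where Aurora and Polo kinases, kinesins and the spindle checkpoint order the separation of the chromosomes. E2F factors act at the promoters of many S phase genes, and NF-Y and the DREAM and MMB complexes act at those of many mitosis genes, through CCAAT boxes and the cell cycle homology region. Macrophages of obese mouse fat are known to divide locally, in addition to arising from blood monocytes.

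Promoters of the S phase genes often held E2F words and those of the mitosis genes CCAAT and the homology region word. The RefSeq promoter table (GRCm38.p6) matched 13 of the 15 S phase genes, with 14 promoters, and 19 of the 24 mitosis genes, with 19 promoters. The 250 bases before the start were searched on both strands. An E2F word (the word TTCCCGC, the word TTGGCGC, the word TTCGCGC or the word TTGCCGC, which can overlap each other) was present in 7 of 14 S phase promoters (50%) and 3 of 19 mitosis promoters (15.8%), against 7.89% of all 32851 promoters. CCAAT was present in 17 of 19 mitosis promoters (89.5%) and 10 of 14 S phase promoters (71.4%), against 33.8% of all promoters. The homology region word TTTGAA was present in 7 of 19 mitosis promoters (36.8%) and 2 of 14 S phase promoters (14.3%), against 16% of all. A match describes letters in a window and is not a tested site.

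The promoter stretches below show how these words are arranged in the S phase promoters with 3 or more E2F words and in mitosis promoters with both CCAAT and TTTGAA whose genes were called lower with MGIG. Both words were present in 7 of 19 mitosis promoters. Those of Ccnb2, Cdk1, Kif11 and Ube2c are not printed, since these genes were not called lower. A link between the words and the calls was not tested. In Mcm5 (chr8:75109335-75109508, plus strand) and Mcm6 (chr1:128359706-128359824, minus strand) capitals mark E2F and CCAAT words on either strand. In Cdc20 (chr4:118437344-118437406, minus strand), Mki67 (chr7:135716380-135716577, minus strand) and Top2a (chr11:99024190-99024426, minus strand) capitals mark CCAAT and TTTGAA words on either strand.
Mcm5: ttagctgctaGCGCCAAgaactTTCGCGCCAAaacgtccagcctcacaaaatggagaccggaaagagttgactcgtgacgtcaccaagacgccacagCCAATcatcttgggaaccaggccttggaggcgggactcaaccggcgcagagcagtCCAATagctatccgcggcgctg
Mcm6: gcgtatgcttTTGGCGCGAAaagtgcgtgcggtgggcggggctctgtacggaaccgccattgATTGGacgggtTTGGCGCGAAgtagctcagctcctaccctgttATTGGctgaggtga
Cdc20: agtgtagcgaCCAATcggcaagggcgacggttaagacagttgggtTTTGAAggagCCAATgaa
Mki67: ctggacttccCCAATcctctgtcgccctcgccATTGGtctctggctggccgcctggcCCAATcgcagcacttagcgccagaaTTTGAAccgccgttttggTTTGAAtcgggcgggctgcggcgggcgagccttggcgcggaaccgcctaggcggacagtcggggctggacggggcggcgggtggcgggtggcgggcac
Top2a: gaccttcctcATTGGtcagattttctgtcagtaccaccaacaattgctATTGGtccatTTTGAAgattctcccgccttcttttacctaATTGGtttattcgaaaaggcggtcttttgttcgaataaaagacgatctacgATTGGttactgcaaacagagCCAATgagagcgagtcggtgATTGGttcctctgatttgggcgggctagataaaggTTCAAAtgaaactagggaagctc

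The libraries of the 2 groups differed in depth and in counts on genes taken as silent in macrophages. Total counts ranged from 14437605 to 16740417 in HFD libraries and from 2214456 to 4904302 with MGIG. The 1598 protein-coding genes of the olfactory, vomeronasal and bitter taste receptor, keratin-associated protein and beta-defensin families (silent families) held 0.0624% to 0.280% of HFD counts and 2.94% to 6.43% in HFD+MGIG, with the highest share in HFD+MGIG 2. A background bound was set for each gene in each library, by multiplying the exon length of the gene by a high level of the silent families, their 90th percentile in counts per kb of exon. It stood at 0.127 to 0.421 CPM (counts-per-million, scaled to the library total) per kb in HFD and at 4.57 to 9.41 CPM per kb in HFD+MGIG. Treatment, depth and silent-family share cannot be told apart, since the groups did not overlap in either measure.

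In HFD every one of the 39 genes exceeded its bound in each library, by 1.98-fold (Cenpf) to 199.6-fold (Pcna) as group means. Per kb of exon, Pcna, the sliding clamp, had the highest level, with 50.6 ± 5.13 CPM per kb (SD, n = 3), followed by Stmn1, a microtubule-destabilising protein, with 24.3 ± 2.06 CPM per kb. Mcm4, Mcm6 and Mcm3, subunits of the helicase, came next, with 12.5 ± 0.835, 10.1 ± 0.656 and 10.1 ± 1.28 CPM per kb. The steps from Pcna to Stmn1 and from Stmn1 to Mcm4 exceeded these SDs, while Mcm6 and Mcm3 did not differ beyond them. Mki67 and Top2a, the usual markers of dividing cells, lay lower, with 2.60 ± 0.446 and 2.67 ± 0.620 CPM per kb. The lowest levels were those of Cenpf and Bub1, genes of the kinetochore, and of Cdc45, with 0.502 ± 0.0678, 0.540 ± 0.148 and 0.823 ± 0.0643 CPM per kb.

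Among the HFD libraries, mitosis genes tended to be high in HFD 1 and low in HFD 3. Of the 24, 16 had their highest CPM in HFD 1 and 17 their lowest in HFD 3, where 38.9% of tested protein-coding genes outside the silent families were highest in HFD 1 and 34.2% lowest in HFD 3. Summed over the 24 genes, the level was 316, 287 and 237 CPM in HFD 1, 2 and 3. The 15 S phase genes summed to 382, 417 and 422 CPM, with 8 of them highest in HFD 3 and 9 lowest in HFD 1. Keratinocyte markers, 7 genes that include keratins of the epidermis, summed to 371, 112 and 65.2 CPM in the same libraries, the order of the mitosis genes. Their part in the mitosis values was not tested.

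**Figure D1:**
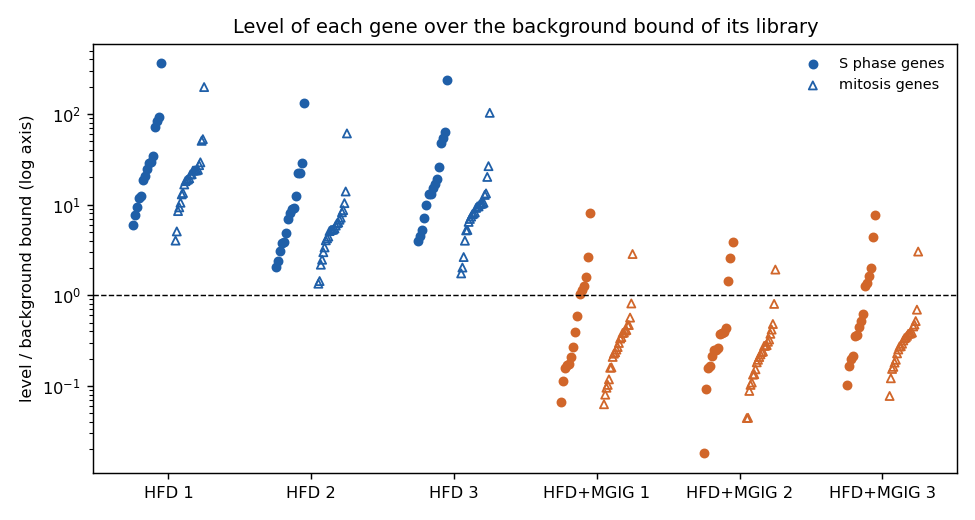
Level of each of the 39 genes divided by its background bound in the same library (log axis), by library, with filled circles for S phase and open triangles for mitosis genes. The dashed line marks a ratio of 1, which all 39 genes exceed in each HFD library and 4 to 7 genes exceed in the HFD+MGIG libraries.

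With MGIG, 17 of the 39 genes were called lower and 2 higher in the fit over all tested genes (edgeR's quasi-likelihood test, Benjamini-Hochberg adjusted p under 0.05), while on the scale of genes with little background, described next, 0 were called lower and 4 higher. All 39 passed the filter on low counts. The lower calls fell on 6 of 15 S phase and 11 of 24 mitosis genes, and the higher calls on 1 of each. Of all 23055 tested genes 17.8% were called lower and 42.9% higher, and of the tested protein-coding genes outside the silent families 26.8% lower and 21.0% higher. The median log2 fold change was −0.90 for the S phase genes and −0.96 for the mitosis genes, against 0.38 for all tested genes and −0.53 for those protein-coding genes. DESeq2 called 17 of the 39 lower and 2 higher, and limma voom 27 lower and 3 higher. Of all 23055 tested genes DESeq2 called 14951 and limma voom 17655, in either direction. CPM of the groups did not overlap for 20 genes that were lower and 6 that were higher in HFD+MGIG, against 23.7% and 48.9% of all tested genes and 35.5% and 27.8% of the protein-coding ones.

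The share of lower calls was near that of genes with little background. These background-limited genes were the 2606 multi-exon protein-coding genes outside the silent families whose bound averaged at most 0.25 of their mean CPM. In the same fit 43.1% of them were called lower and 2.11% higher, beside 43.6% and 5.13% of the 39, and their median log2 fold change was −0.91, beside −0.94 for the 39. With scaling factors taken from the background-limited genes, an alternative added after seeing the data, log2 fold changes rose by a median of 1.12, and 1.82% of all tested genes were called lower and 50.1% higher. The medians were then 0.19 for S phase and 0.29 for mitosis genes, and at an unadjusted p under 0.05 1 of the 39 was lower and 4 were higher. For 34 of the 39 genes the mean with MGIG did not exceed the bound, including 15 of the 17 called lower. Between 13 and 17 of the 39 genes had under 20 counts in each HFD+MGIG library, and none in HFD. In bulk samples fewer dividing cells and less RNA per cell cannot be told apart.

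**Figure D2:**
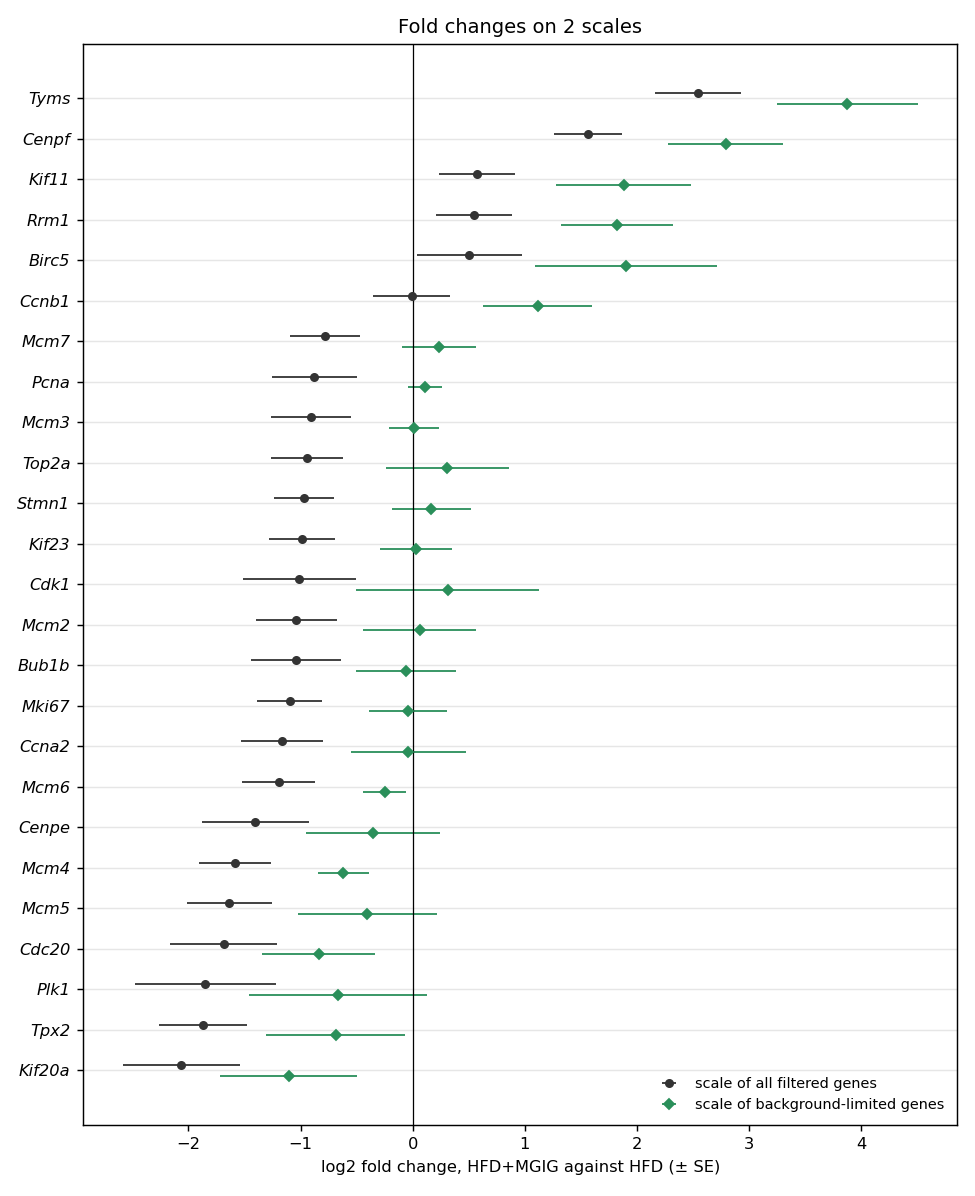
Log2 fold changes (HFD+MGIG against HFD, with SE) of 25 genes, on the scale of all filtered genes (circles) and with scaling factors from the background-limited genes (diamonds). Every diamond lies to the right of its circle, and of the 17 genes called lower on the first scale none is called on the second.

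The 6 subunits of the MCM helicase were called lower in the fit over all tested genes, whereas on the background-limited scale none was called and Mcm2, Mcm3 and Mcm7 had values above 0. Mcm4 (ENSMUSG00000022673, mm10 chromosome 16, 15623897 to 15637400) stood at CPM of 42.8, 43.8 and 48.4 in HFD libraries 1, 2 and 3 and of 19.5, 12.6 and 22.2 in HFD+MGIG libraries 1, 2 and 3. Mcm6 had CPM of 50.0, 44.0 and 48.0 in the HFD libraries and of 31.1, 16.7 and 26.7 with MGIG. The groups did not overlap for either gene, and HFD+MGIG 2 was the lowest library. With MGIG the means were under the bound, at 0.789 of it for Mcm4 and 0.832 for Mcm6. The log2 fold change of Mcm4 was −1.59 (edgeR adjusted p = 0.00111, SE 0.322), and the background-limited scale gave −0.62 (edgeR adjusted p = 0.0532, SE 0.226). That of Mcm6 was −1.20 (edgeR adjusted p = 0.00743, SE 0.327), and the background-limited scale gave −0.25 (edgeR adjusted p = 0.317, SE 0.193). Each was called in 14 of 17 alternatives. The alternatives without a call were those that address background, namely the background-limited scale and both subtractions of silent-family background. With the median subtracted the edgeR adjusted p was 0.0617 for Mcm4 and 0.174 for Mcm6. With the 90th percentile subtracted it was 0.0597 and 0.104. When only genes whose bound averaged at most 0.5 of their mean were fitted, Mcm4 was called lower (−0.66, edgeR adjusted p = 0.0430, SE 0.168) and Mcm6 was not (−0.29, adjusted p = 0.251).

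Of the MCM subunits Mcm3 was the 1 whose HFD+MGIG mean was above its bound. Mcm3 had CPM of 34.7, 35.4 and 43.3 in the HFD libraries and of 30.8, 14.0 and 27.7 with MGIG, with a mean 1.01 times the HFD+MGIG bound. HFD+MGIG 1 came closest to the HFD range. Mcm5 had CPM of 12.7, 11.7 and 14.4 in the HFD libraries and of 4.34, 8.13 and 3.87 with MGIG, 0.213 of the bound. It differed by −1.64 on the log2 scale (edgeR adjusted p = 0.00258, SE 0.378), without overlap of the groups. Mcm2 had CPM of 16.6, 14.4 and 19.2 in the HFD libraries and of 5.78, 10.4 and 14.3 with MGIG, where HFD+MGIG 3 lay just under HFD 2. Mcm7 had CPM of 16.6, 17.0 and 18.1 in the HFD libraries and of 13.7, 10.4 and 12.6 with MGIG, again without overlap. Mcm2, Mcm3 and Mcm7 had log2 fold changes of −1.04, −0.90 and −0.78 (edgeR adjusted p = 0.0251, 0.0427 and 0.0456). The call of Mcm2 was lost without HFD 3 or HFD+MGIG 1, that of Mcm3 without HFD 2, HFD 3 or HFD+MGIG 3, and that of Mcm7 without HFD 1, HFD 2, HFD 3 or HFD+MGIG 3 (highest edgeR adjusted p = 0.0915, 0.125 and 0.131). Mcm7 transcripts matched 2 other genes in stretches of at least 100 bases at 95% identity or more. Together these stretches covered up to 92.5% of a transcript, so the counts of Mcm7 are uncertain.

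Pcna, the member with the highest level, did not pass the threshold on either scale. It had CPM of 110.2, 135 and 119.7 in the HFD libraries and of 101, 58.7 and 83.4 with MGIG, 5.27 times its bound there. The groups did not overlap, and HFD+MGIG 2 was lowest. Its log2 fold change was −0.88 (edgeR adjusted p = 0.0613, SE 0.380; DESeq2 adjusted p = 0.0182) over all tested genes, and 0.10 (edgeR adjusted p = 0.678, SE 0.143) in a fit of the background-limited genes alone. Pcna and Stmn1 were the only members of the set among those genes, of which 6.25% were called lower and 4.45% higher in that fit. Up to 65.9% of a Pcna transcript matched 1 other gene.

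Tyms, thymidylate synthase, was called higher on both scales. Tyms (ENSMUSG00000025747, mm10 chromosome 5, 30058202 to 30073617) had CPM of 16.0, 23.2 and 16.8 in the HFD libraries and of 83.9, 223 and 121 with MGIG. Every HFD+MGIG library lay above every HFD library, with HFD+MGIG 2 the highest. The log2 fold change was 2.54 (edgeR adjusted p = 0.000227, SE 0.384), and the background-limited scale gave 3.88 (edgeR adjusted p = 0.00505, SE 0.627). It was called in 17 of 17 alternatives, with log2 fold changes from 2.19 to 3.98, and its HFD+MGIG mean was 3.66 times the bound. Its deposited counts were fractional in all 6 libraries. Matches to 32 other genes lay in 5 of 9 Tyms transcripts and together covered up to 85.8% of a transcript. Reads of Tyms may therefore be split with other loci, its value is uncertain, and the part of such reads in the difference was not tested.

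Rrm1, the large subunit of ribonucleotide reductase, had its HFD+MGIG libraries in the same order as Tyms. It had CPM of 48.2, 58.0 and 60.4 in the HFD libraries and of 65.3, 148 and 102 with MGIG, 1.49 times its bound. The groups did not overlap. The log2 fold change was 0.55 (edgeR adjusted p = 0.170, SE 0.338), and the background-limited scale gave 1.82 (edgeR adjusted p = 0.0191, SE 0.5001). Rrm1 also had fractional counts in all 6 libraries. Matches to 18 other genes lay in 2 of 7 Rrm1 transcripts and together covered up to 14.1% of a transcript. Rrm2, the small subunit that is made in S phase, had CPM of 10.1, 9.42 and 8.88 in the HFD libraries and of 3.86, 11.3 and 4.49 with MGIG, with overlap through HFD+MGIG 2, and was not called (−0.96, edgeR adjusted p = 0.0680).

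The remaining S phase genes were low and not called on either scale. Cdc6, the MCM loader, Cdc45, the E cyclin genes Ccne1 and Ccne2, and Tk1, thymidine kinase, had HFD means from 2.89 (Cdc45) to 6.27 CPM (Tk1). Their HFD+MGIG means were 0.0958 (Ccne1) to 0.353 (Ccne2) of the bound. The whole S phase set summed to 378, 543 and 444 CPM in HFD+MGIG 1, 2 and 3, below the HFD range in HFD+MGIG 1 and above it in HFD+MGIG 2 and 3. Without Tyms and Rrm1 the sums were 318, 336 and 345 CPM in HFD 1, 2 and 3. They were 228, 172 and 221 CPM in HFD+MGIG 1, 2 and 3, all below the HFD range. Tyms and Rrm1 are the 2 S phase genes that were higher with MGIG without overlap of the groups. The lower sums therefore follow in part from leaving these genes out.

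**Figure D3:**
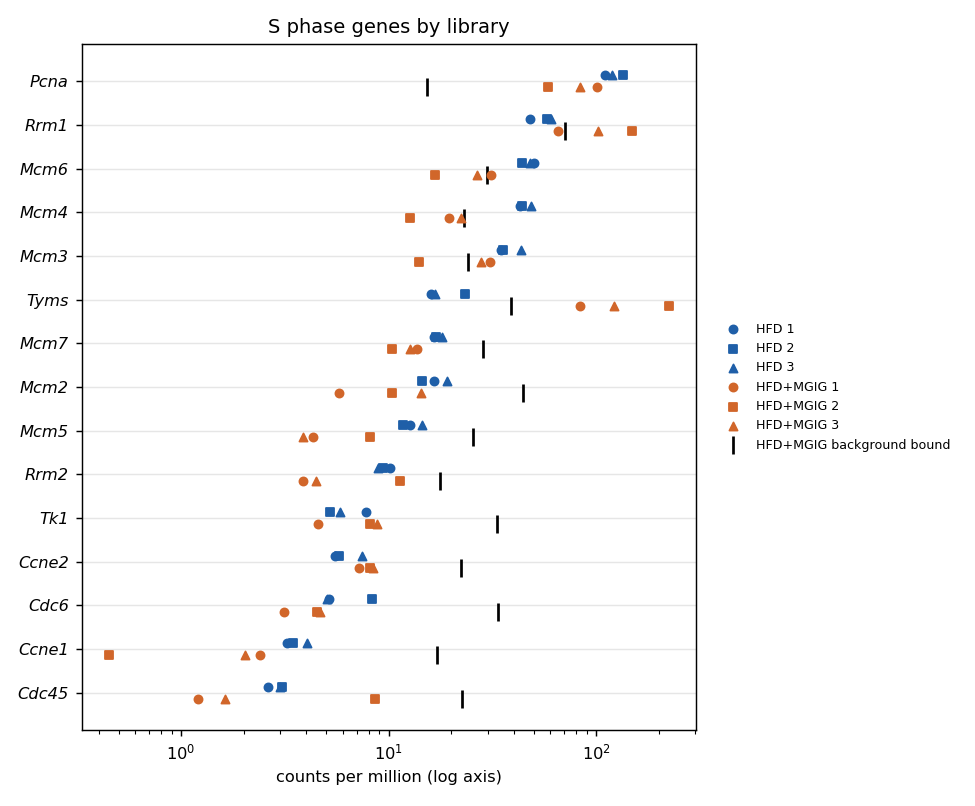
CPM of the 15 S phase genes in each library (log axis), with HFD in blue, HFD+MGIG in orange and the mean HFD+MGIG background bound as a black bar. Pcna, Tyms, Rrm1 and Mcm3 are the 4 genes whose HFD+MGIG mean is above the bar.

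Mki67 and Top2a, markers of cells in cycle, were called lower in the fit over all tested genes but not on the background-limited scale, where Top2a had a value above 0. Mki67 (ENSMUSG00000031004, mm10 chromosome 7, 135689784 to 135716361) had CPM of 30.6, 26.4 and 21.6 in the HFD libraries and of 13.3, 14.5 and 17.5 with MGIG, 0.234 of the bound. The groups did not overlap, with HFD+MGIG 3 nearest to HFD. Its log2 fold change was −1.10 (edgeR adjusted p = 0.00590, SE 0.290), and the background-limited scale gave −0.039 (edgeR adjusted p = 0.936, SE 0.349). Top2a, topoisomerase II alpha, had CPM of 27.4, 27.2 and 17.6 in the HFD libraries and of 11.1, 23.9 and 13.9 with MGIG. HFD+MGIG 2 lay inside the HFD range. The log2 fold change was −0.94 (edgeR adjusted p = 0.0229, SE 0.319; DESeq2 adjusted p = 0.0688), a call lost when HFD 1 or HFD 2, or HFD+MGIG 1 or HFD+MGIG 3, was left out (highest edgeR adjusted p = 0.0963).

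Among the mitotic cyclins and kinases, Ccna2 and Plk1 were called lower in the fit over all tested genes, and neither was called on the background-limited scale. Ccna2, cyclin A2, had CPM of 12.6, 15.0 and 11.1 in the HFD libraries and of 8.19, 8.58 and 5.10 with MGIG. Its groups did not overlap, and its log2 fold change was −1.16 (edgeR adjusted p = 0.0160, SE 0.366; up to 0.0873 without HFD 2 or HFD+MGIG 3). Plk1, the Polo kinase, had CPM of 3.76, 3.74 and 3.85 in the HFD libraries and of 0.723, 2.26 and 1.22 with MGIG, which were 3, 5 and 6 counts. Plk1 differed by −1.85 on the log2 scale (edgeR adjusted p = 0.0227, SE 0.627; up to 0.0873 without HFD 3, HFD+MGIG 1 or HFD+MGIG 3).

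The partners cyclin B and CDK1 were not called on either scale. Cdk1 had CPM of 11.4, 5.13 and 6.77 in the HFD libraries and of 2.65, 9.03 and 3.67 with MGIG, with HFD+MGIG 2 inside the HFD range (log2 fold change −1.01, edgeR adjusted p = 0.0965). Ccnb1, cyclin B1, had CPM of 8.96, 7.90 and 8.57 in the HFD libraries and of 10.4, 12.2 and 9.18 with MGIG, all above HFD. Its log2 fold change after scaling was −0.0098 (edgeR adjusted p = 0.981, SE 0.341), and 1.12 on the background-limited scale. Ccnb1 is uncertain, since its counts were fractional in all 6 libraries and its transcripts matched 5 other genes. Together these matches covered up to 100% of a transcript. Ccnb2, the other B cyclin, and Aurka and Aurkb, the Aurora kinases, had log2 fold changes of −1.12, −0.55 and −0.65 (edgeR adjusted p = 0.0524, 0.362 and 0.184).

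Kif20a, Tpx2 and Cdc20, genes of spindle assembly, anaphase and cytokinesis, were called lower in the fit over all tested genes, with negative values but no call on the background-limited scale. Kif20a, a kinesin of cytokinesis, had CPM of 10.3, 9.56 and 4.85 in the HFD libraries and of 2.17, 1.81 and 3.06 with MGIG. Kif20a differed by −2.06 on the log2 scale (edgeR adjusted p = 0.00459, SE 0.521), and 29.3% of its exon length overlaps Cdc23 on the opposite strand, which counting without strand could mix. Tpx2, which activates Aurora A at the spindle, had CPM of 14.1, 11.6 and 10.3 in the HFD libraries and of 2.89, 5.87 and 3.87 with MGIG (−1.87, edgeR adjusted p = 0.00136, SE 0.393). No HFD+MGIG library reached the HFD range in these genes. Cdc20, the activator of the anaphase-promoting complex, had CPM of 12.5, 8.17 and 10.6 in the HFD libraries and of 5.54, 1.81 and 3.87 with MGIG (−1.68, edgeR adjusted p = 0.00905, SE 0.477), also without overlap. Up to 95.5% of a Cdc20 transcript matched 1 other gene. On the background-limited scale Kif20a, Tpx2 and Cdc20 had −1.11, −0.69 and −0.84 (edgeR adjusted p = 0.170, 0.393 and 0.208).

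Kif23, Cenpe, Bub1b and Stmn1 were also called lower over all tested genes and not on the background-limited scale, where Kif23 and Stmn1 had values above 0. Kif23, a kinesin of the central spindle, had CPM of 29.5, 21.1 and 22.4 in the HFD libraries and of 17.1, 13.6 and 14.1 with MGIG (−0.99, edgeR adjusted p = 0.0117, SE 0.294; 0.0641 without HFD+MGIG 3). Cenpe, the kinetochore motor, had CPM of 9.32, 7.90 and 4.85 in the HFD libraries and of 3.62, 3.61 and 3.06 with MGIG (−1.41, edgeR adjusted p = 0.0228, SE 0.477; up to 0.0856 without HFD 1, HFD 2 or HFD+MGIG 3). Both had groups that did not overlap. Bub1b, the checkpoint protein BUBR1, had CPM of 11.7, 14.8 and 8.70 in the HFD libraries and of 8.68, 5.42 and 6.73 with MGIG, where HFD 3 and HFD+MGIG 1 nearly met (−1.04, edgeR adjusted p = 0.0398, SE 0.401; up to 0.164 without HFD 1, HFD 2 or HFD+MGIG 3).

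Stmn1 was the 1 mitosis gene whose HFD+MGIG mean exceeded its bound, 2.44 times. It had CPM of 48.5, 49.4 and 42.1 in the HFD libraries and of 28.7, 34.8 and 26.7 with MGIG, without overlap. The difference over all tested genes was −0.97 on the log2 scale (edgeR adjusted p = 0.00816, SE 0.270; up to 0.0650 without HFD 2 or HFD+MGIG 3), and the fit of the background-limited genes alone gave 0.11 (edgeR adjusted p = 0.841, SE 0.303). Up to 65% of a Stmn1 transcript matched 1 other gene.

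Cenpf, a large kinetochore protein, was the mitosis gene called higher, on both scales, and its sign turned when background was subtracted. It had CPM of 7.89, 8.73 and 6.65 in the HFD libraries and of 21.7, 40.2 and 26.5 with MGIG, 0.298 of its bound, and its exon length of 15433 bases enters that bound. The groups did not overlap, and HFD+MGIG 2 was highest. Its log2 fold change was 1.56 (edgeR adjusted p = 0.000825, SE 0.303), and the background-limited scale gave 2.79 (edgeR adjusted p = 0.00544, SE 0.514). With the median silent-family background subtracted, which left 5, 7 and 30 counts in HFD+MGIG 1, 2 and 3, it was −0.47 (edgeR adjusted p = 0.631, SE 0.695).

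Kif11 and Birc5 had their highest value in HFD+MGIG 2 too. Kif11, the spindle kinesin Eg5, had CPM of 9.98, 10.6 and 12.4 in the HFD libraries and of 13.0, 33.9 and 17.7 with MGIG, without overlap. It was not called over all tested genes (0.57, edgeR adjusted p = 0.149) and was called higher on the background-limited scale (1.88, edgeR adjusted p = 0.0347, SE 0.605). On that scale 50.1% of all tested genes were called higher. The Kif11 mean with MGIG was 0.451 of its bound. With the median silent-family background subtracted, Kif11 was not called (0.34, edgeR adjusted p = 0.731, SE 0.686). Birc5, survivin, had CPM of 9.38, 7.55 and 5.03 in the HFD libraries and of 5.30, 25.7 and 10.8 with MGIG, which overlap, and was called on neither scale (0.50, edgeR adjusted p = 0.353). In HFD+MGIG 16 of the 24 mitosis genes were highest in replicate 2, the library with the largest silent-family share, where 54.6% of all tested genes, 39.6% of the protein-coding ones without the silent families and 4.41% of the background-limited genes were highest. Summed over the 24 mitosis genes, the level was 195, 300 and 200 CPM in HFD+MGIG 1, 2 and 3, beside 237 to 316 CPM in HFD. The part of background in these values was not tested.

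The other mitosis genes, Cdca3, Cdca8, Ube2c, Nusap1 and Bub1, had HFD means of 2.35 (Bub1) to 9.21 CPM (Nusap1) and were not called on either scale. With the median silent-family background subtracted from the counts, an alternative added after seeing the data, 4 S phase and 9 mitosis genes were called lower and 2 S phase genes, Tyms and Rrm1, higher. Of the genes tested there 10.5% were called lower and 23.4% higher. For 11 of those 13 genes no count was left in any HFD+MGIG library, so their fitted values (−9.88 for Mcm5 to −7.33 for Bub1) depend on the prior count and measure no fold. Before subtraction 6 of the 13 were called lower and 7 were not called, among them Bub1, whose CPM was higher with MGIG. Of the 17 genes called lower before, 11 were not called after, Mcm4, Mcm6, Mki67 and Cdc20 among them. In the HFD+MGIG libraries 18 to 25 of the 39 genes exceeded that median background.

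**Figure D4:**
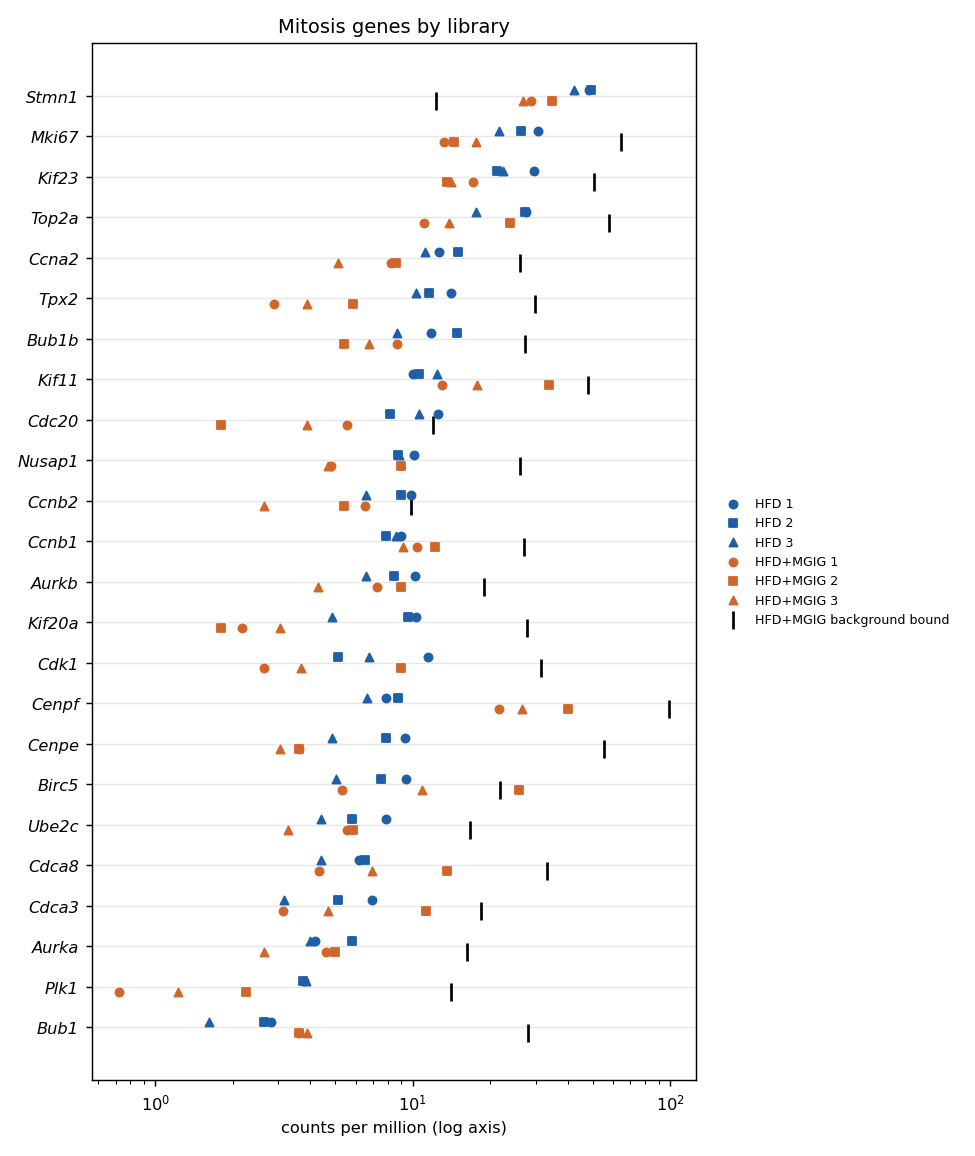
CPM of the 24 mitosis genes in each library (log axis), with HFD in blue, HFD+MGIG in orange and the mean HFD+MGIG background bound as a black bar. Stmn1 is the 1 gene whose HFD+MGIG mean is above the bar, and HFD+MGIG 2 (squares) is the highest library of its group for 16 of the 24.

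Other replication and mitosis genes were called in both directions over all tested genes. Of 36 further origin and fork genes, 8 were called lower and 4 higher (median log2 fold change −0.36), and of 39 further mitosis genes 6 lower and 9 higher (median −0.39). In the same fit 17.8% of all tested genes were called lower and 42.9% higher. On the background-limited scale the calls were 0 lower and 9 higher, and 0 lower and 13 higher, where 1.82% of all tested genes were lower and 50.1% higher. With MGIG the mean did not exceed the bound for 33 and 32 of them. Fen1, the flap endonuclease, had 15.1 ± 1.83 CPM in HFD and 5.96 ± 2.19 CPM with MGIG (SD, n = 3; −1.57, edgeR adjusted p = 0.00403). Pole, the catalytic subunit of polymerase epsilon, had 1.85 ± 0.471 and 14.7 ± 9.69 CPM (2.58, edgeR adjusted p = 0.000918), beside an HFD+MGIG bound of 71.5 CPM. Cdc25c, the phosphatase that activates CDK1, had 1.01 ± 0.405 and 32.1 ± 20.1 CPM (4.56, edgeR adjusted p = 5.417e-05), beside a bound of 31.5 CPM. Mcm10, Hells, Esco2, Kif18a and Spc24 were called higher as well, with log2 fold changes from 1.93 to 2.87.

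Regulators of cycle entry included genes called lower in each of 3 lists, where the fit called 17.8% of all tested and 43.1% of background-limited genes lower. The shares called higher were 42.9% and 2.11%. Of 8 G1 cyclin and kinase genes 3 were called lower, Cdk2, Ccnd2 and Ccnd3. Ccnd2, a D cyclin, had 77.8 ± 12.4 CPM in HFD and 48.3 ± 5.09 CPM with MGIG (−0.997, edgeR adjusted p = 0.0143), beside an HFD+MGIG bound of 60.2 CPM. Of 13 tested CDK inhibitors and p53 targets 6 were called lower, Cdkn1c, Cdkn2d, Gadd45a and Ccng1 among them, and of 16 RB and E2F family genes 6 lower and 2 higher. Cdkn1c, the inhibitor p57, had 31.7 ± 4.98 and 10.4 ± 7.04 CPM (−1.80, edgeR adjusted p = 0.00687), beside a bound of 13.05 CPM. Rb1, the retinoblastoma protein, had 98.3 ± 18.0 and 43.5 ± 17.1 CPM (−1.45, edgeR adjusted p = 0.00876), beside a bound of 38.5 CPM. With MGIG the mean did not exceed the bound for 5 of 8 G1 genes and 12 of 16 RB and E2F genes. The same held for 5 of 14 listed inhibitors and targets. Higher calls on the background-limited scale numbered 2 G1 genes, 0 inhibitors and targets and 4 RB and E2F genes, and none was lower there. Of all tested genes 50.1% were called higher and 1.82% lower on that scale.

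Growth signals of macrophages included Myc, a transcription factor that promotes growth and division and was called lower in both fits. Of 14 such genes 9 were called lower and 0 higher over all tested genes, and 3 lower and 2 higher on the background-limited scale. Of the 14, 8 were background-limited genes, a class of which 43.1% were called lower in the first fit, beside 17.8% of all tested genes. In the fit of the background-limited genes alone 1 of these 8 was called lower and 1 higher, beside 6.25% and 4.45% of that class. Myc had 180.3 ± 15.6 CPM in HFD and 72.6 ± 16.4 CPM with MGIG, beside an HFD+MGIG bound of 17.4 CPM. For Myc the log2 fold change was −1.61 (edgeR adjusted p = 0.00363, SE 0.390), and −0.61 (edgeR adjusted p = 0.0330, SE 0.147) in the fit of the background-limited genes. Csf1, the growth factor of macrophages, had 76.4 ± 8.25 and 28.3 ± 11.8 CPM (−1.71, edgeR adjusted p = 0.00233), beside a bound of 33.8 CPM.

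Markers of other cells, which can also divide, had counts in both groups. With MGIG the mean did not exceed the bound for 7 of 7 keratinocyte and 9 of 10 T and NK cell markers. Nor did it for 4 of 6 B cell, 6 of 8 dendritic cell, 3 of 8 endothelial and 3 of 7 adipocyte markers. For fibroblast, neutrophil and mast cell, and macrophage markers this held for 1 of 8, 2 of 8 and 0 of 10. Where the bound was not exceeded, counts with MGIG cannot be told from background. The calls below stand beside 17.8% of all tested genes called lower and 42.9% higher. For background-limited genes in that fit the shares were 43.1% and 2.11%. On the background-limited scale 1.82% of all tested genes were called lower and 50.1% higher. The 10 macrophage markers summed to 14620 to 16700 CPM in HFD and 6341 to 16140 CPM in HFD+MGIG, the low value being HFD+MGIG 2, and 0 were called (3 higher on the background-limited scale). The 8 endothelial markers summed to 1858 to 2244 and 408 to 732 CPM, with 8 called lower (7 on the background-limited scale). The 8 fibroblast markers summed to 2227 to 3436 and 1254 to 1825 CPM (5 lower, and 2 lower and 1 higher on that scale), and the 7 adipocyte markers to 1253 to 2294 and 672 to 895 CPM (5 lower, and 2 on that scale). The 7 keratinocyte markers summed to 65.2 to 371 and 30.6 to 53.3 CPM (5 lower, and 4 on that scale). The markers of these other cell kinds were lower in every HFD+MGIG library than in any HFD library as sums. The 10 T and NK cell markers summed to 35.5 to 43.9 and 42.2 to 83.1 CPM (1 lower, 1 higher, and 0 and 4 on that scale), and the 6 B cell markers to 22.0 to 50.1 and 38.8 to 172 CPM (2 higher on either scale). The 8 dendritic cell markers summed to 228 to 288 and 138 to 208 CPM (3 lower, 1 higher, and 1 and 1 on that scale), and the 8 neutrophil and mast cell markers to 244 to 284 and 153 to 324 CPM (1 lower, and 0 on that scale). No marker was at 0 in every library of a group. The part of these cells in the proliferation values was not tested.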

How the data were processed

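RNA from 3 HFD and 3 HFD+MGIG libraries, each made with the SMART-Seq v4 low-input kit from 10 ng of RNA per the labels' protocols, was analysed from the authors' deposited table of estimated counts per Ensembl gene, some of them fractional. The submitters' processing notes name fastp, HISAT2, StringTie and mm10. Versions, the counting program and its strand setting were not given in the sources used here. Counts were rounded to whole numbers. GENCODE M21 matched 51884 of the 57180 IDs and gave exon lengths, with 5296 unmatched.

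Groups were compared with edgeR 4.0.16 (R 4.3.3) by its quasi-likelihood test, with TMM factors, filterByExpr and group as the only term, adjusted by Benjamini-Hochberg over all 23055 genes tested, with a threshold of 0.05. DESeq2 1.42.0 and limma 3.58.1 (voom) were alternatives, beside other scalings, filters, thinning to 2214456 counts, a replicate block, background subtraction and leaving out each library. Only the main edgeR fit was tested on simulated data, in which the groups differed in depth but not in background. CPM use the library total. Fold changes are HFD+MGIG against HFD.

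The members and all lists were chosen with earlier results of these data known. Values in every library are given for members past the threshold, among the background-limited genes, at 10 CPM or more over the 6 libraries, or among Mki67, Top2a, Mcm2, Pcna, Cdk1 and Ccnb1. From each other list up to 4 genes of smallest p and at least 10 CPM were eligible to be named. Rrm2 was added after its values were seen. Promoter sequences came from RefSeq (GRCm38.p6), and transcripts of GENCODE M21 were compared by blastn.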

Additional observations from a re-analysis of the deposited data

How the results depend on the processing

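Depth and background limit these results: most HFD+MGIG means of the set are at or below the bound, and each group has 3 libraries. The background-limited scale and the subtractions over all genes were added after seeing the data.

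Against 14015 genes called, no filter gave 23155, a minimum of 5 CPM in 3 libraries 6156, thinning 6143, median subtraction 5859 and subtraction of the 90th percentile bound 7549, and leaving out 1 library gave 11781 to 17477. Against 6 S phase genes called lower, library totals gave 3, the 5 CPM minimum 3, voom 10, thinning 2 and the background-limited scale 0, and leaving out 1 library gave 3 (without HFD 3) to 8. Against 1 called higher, library totals, the 5 CPM minimum, voom, thinning, the background-limited scale and median subtraction each gave 2. Against 11 mitosis genes called lower, library totals gave 6, the 5 CPM minimum 3, voom 17, thinning 1, the background-limited scale 0 and the 90th percentile subtraction 22, and leaving out 1 library gave 4 (without HFD+MGIG 3) to 14, with 6 without HFD 2. Against 1 called higher, library totals, thinning and the background-limited scale each gave 2, and both subtractions 0. Against 279 background-limited genes called, a bound of at most 0.5 gave 461, of at most 0.1 106 and the 90th percentile subtraction 0, and leaving out 1 library gave 66 (without HFD 1) to 343, with 74 when HFD 2, 109 when HFD 3 and 183 when HFD+MGIG 3 was left out. Against 0 members called among them, a bound of at most 0.5 gave 2, and leaving out 1 library 0 to 0. The causes were not tested.

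Signs turned on the background-limited scale for Mcm2 (0.062), Mcm3 (0.013), Mcm7 (0.23), Pcna (0.11), Top2a (0.31), Ccnb1 (1.12), Cdk1 (0.31), Kif23 (0.029) and Stmn1 (0.17). With the 90th percentile subtracted they turned for Pcna (0.24), Birc5 (−8.82), Kif11 (−9.32) and Cenpf (−8.07), the other three being fitted against counts near 0 and so dependent on the prior count, and with the median subtracted for Cenpf (−0.47). Ccnb1, near 0, turned with RLE scaling factors in edgeR (0.14), library totals (0.33), the 5 CPM minimum (0.41), DESeq2 (0.13), and thinning (0.43). Its value ranged from −0.098 to 0.12 when 1 library was left out, positive without HFD+MGIG 3. Birc5 ranged from −0.11, without HFD+MGIG 2, to 0.83 in the same way. Stmn1 fitted among the background-limited genes turned with the 90th percentile subtracted (−0.0089) and when HFD+MGIG 2 was left out (−0.31).

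With the replicate number as a block, 14145 genes, 6 S phase and 12 mitosis genes lower, 1 of each higher, and 216 background-limited genes with 0 members were called. Deviations of same-numbered libraries correlated at 0.048, 0.26 and 0.079 across genes, and not every library correlated best with its own number. The labels do not say whether a number links libraries of the 2 groups, and these few correlations cannot decide it.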
